A study of Rattus norvegicus with 33 samples.

Results

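Blautia is a genus of strictly anaerobic gut bacteria of the family Lachnospiraceae. Its reads were followed here in the cecal contents of 33 rats. Members were the rows whose genus is Blautia in the deposited tables: 1 of 1455 bacterial genus rows and 5 of 5543 bacterial species rows. The species were Blautia producta, Blautia sp. SC05B48, Blautia argi, Blautia hansenii and Blautia sp. LZLJ-3. A normalized table of 8584 taxa held 7 Blautia rows, which adds reads named to the genus with no species and Blautia sp. YL58.

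Blautia species are known as acetogens. Acetogens join hydrogen and carbon dioxide, left over from the fermentation of fibre, into acetate by the reductive acetyl-CoA (Wood-Ljungdahl) pathway. In the gut they share hydrogen with sulfate-reducing bacteria and methanogens. Their acetate is taken up by the host and by butyrate-producing relatives such as Roseburia and Anaerostipes. Not every strain of the genus grows on hydrogen and carbon dioxide. B. producta is a classical acetogen that also grows on carbon monoxide. B. hansenii was first placed in another genus, and B. argi was described from dog feces. SC05B48 and LZLJ-3 are strain names of isolates with no species name.

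The groups were 10 female and 7 male SHR (spontaneously hypertensive rats, an inbred strain in which blood pressure rises with age) and 9 female and 7 male WKY (Wistar Kyoto rats, the strain SHR is commonly compared with). The rats were untreated as far as the labels say, and were 14 to 15 weeks old. DNA from the cecal contents of each rat was sequenced by the shotgun method. The labels name no cage, litter or sequencing batch. SHR and WKY animals carry separate runs of numbers, so processing order and strain cannot be told apart. Rats were treated as independent. If rats shared a cage or a litter, the p-values would be too small.

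Depth differed between the strains. Assigned reads per library ran from 163140 to 886827, with medians of 365717 in female SHR, 547938 in male SHR, 706634 in female WKY and 688051 in male WKY. Assigned reads here are the library total that the steps of the deposited percents imply. Levels are given either as percent of assigned reads or as reads divided by the size factor that the authors' normalized table implies for each library. In the fits, the percent scale took bacterial genus reads as the whole for genera and bacterial species reads for species. Bacterial genus reads were 84.7% (SHR female 1) to 93.6% (WKY male 6) of assigned reads. The scales differ between the strains: the median library held 452785 assigned reads per unit of size factor in female SHR and 446647 in male SHR, against 599033 in female WKY and 558955 in male WKY. Between the strains, the median log2 difference of all 1418 genera tested was therefore -0.05 in females and -0.01 in males on the size-factor scale, and 0.36 and 0.43 on the percent scale. Every Blautia level has to be read against that shift. Neither scale gives the number of bacterial cells: more Blautia and less of everything else cannot be told apart.

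Blautia was one of the abundant genera in every animal. Its reads numbered 2092 to 22937 per rat, 0.978% to 3.39% of assigned reads, with a median of 1.82% over the 33 rats. Among bacterial genera it ranked between place 4 (SHR female 1) and place 14 (SHR male 5), with a median rank of 9. Within Lachnospiraceae its mean level was second only to that of Lachnoclostridium. Counting error was small at this depth: the 95% Wilson interval of the genus reached at most 4.26% of its value to either side. The reads carry no molecular identifiers and may stem from shared molecules, so such intervals cover counting error only.

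By group, the genus took 1.28% to 3.39% of assigned reads in SHR females, with a median of 1.88% and a mean of 2.001% ± 0.567 (SD, n = 10). SHR males ran from 0.978% to 2.49%, with a median of 2.06% and a mean of 1.89% ± 0.534 (SD, n = 7). WKY females ran from 0.995% to 2.24%, with a median of 1.22% and a mean of 1.49% ± 0.443 (SD, n = 9). WKY males ran from 1.02% to 3.19%, with a median of 1.81% and a mean of 1.86% ± 0.675 (SD, n = 7). All 4 groups overlapped. The highest rats were SHR female 1 and WKY male 4, and the lowest SHR male 5 and WKY female 3.

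**Figure D1:**
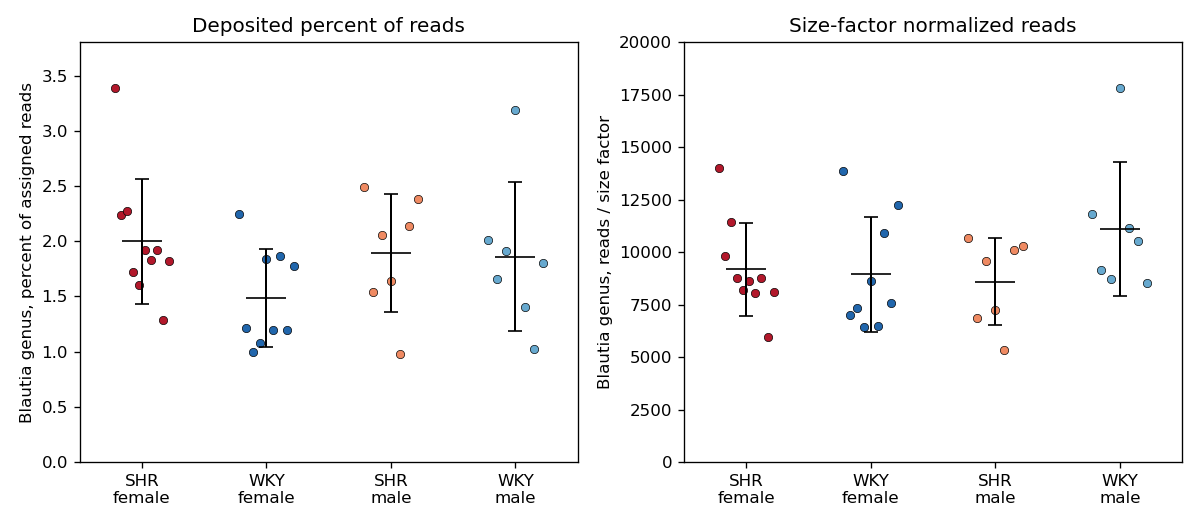
Level of the Blautia genus in each rat (points) by group, with group mean and SD (bars), as percent of assigned reads (left) and as reads divided by the size factor (right). On the left WKY females have the lowest median (1.22%); on the right WKY males have the highest mean (11106), and all groups overlap on both scales.

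On the size-factor scale the order of the groups was another. The mean normalized value of the genus was 11106 ± 3213 (SD, n = 7) in WKY males, 9178 ± 2194 (SD, n = 10) in SHR females, 8950 ± 2729 (SD, n = 9) in WKY females and 8597 ± 2073 (SD, n = 7) in SHR males. Neighbours in this order did not differ beyond their spread. The lowest rat was SHR male 5 at 5349 and the highest WKY male 4 at 17809.

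No difference in the level of the genus between the strains passed the test. In females, SHR minus WKY was 0.06 ± 0.18 (SE) on the log2(normalized value + 1) scale, with a 95% interval from -0.31 to 0.43 and an adjusted p of 0.914 by limma over all genera. In males it was -0.37 ± 0.21 (SE), with an interval from -0.80 to 0.07 and an adjusted p of 0.522. Averaged over the sexes it was -0.15 ± 0.14 (SE), with an adjusted p of 0.584. On the percent scale these differences were 0.47 in females, 0.08 in males and 0.27 averaged over the sexes, so the sign turned in males and in the average. Set against the median of all genera on the same scale, Blautia lay 0.10 above it in females and 0.36 below it in males by size factors, and 0.11 above and 0.35 below by percent. Of all genera, 64.7% had a lower SHR minus WKY difference than Blautia in females, and 12.8% did in males.

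The sexes did not differ beyond the test's threshold either. Female minus male was 0.10 ± 0.20 (SE) in SHR, with an interval from -0.30 to 0.50, and -0.32 ± 0.20 (SE) in WKY, with an interval from -0.73 to 0.08. The limma adjusted p-values were 0.989 and 0.509. The strain by sex term, the female strain difference minus the male one, was 0.42 ± 0.28 (SE), with an adjusted p of 0.864. Intervals this wide leave room for changes of either sign in all of these comparisons, and a missed threshold does not show equal levels. Among all genera, limma called 0.917% between the strains in females, 0% in males, 3.03% averaged over the sexes, 0% between the sexes of SHR, 2.4% between those of WKY and 0% for strain by sex. edgeR called 1.62%, 0.917%, 5.78%, 0%, 2.89% and 0% in the same order, and DESeq2 3.67%, 1.83%, 8.18%, 0%, 4.94% and 0.141%; neither called Blautia.

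As a share of bacterial genus reads, Blautia stood higher in SHR females before adjustment only. The share ran from 1.46% to 4.002% with a median of 2.18% in SHR females, and from 1.10% to 2.51% with a median of 1.38% in WKY females. All 10 SHR females lay above the WKY median. The mean log2 odds differed by 0.48, an odds ratio of 1.39, with p = 0.0205 by a 2-sided exact permutation test and 0.0819 after Benjamini-Hochberg adjustment over the 4 comparisons. Leaving out WKY female 1, the highest rat of its group, gave 0.56 and an adjusted p of 0.0294 by the same exact test. Leaving out SHR female 9, the shallowest library, gave 0.55 and 0.0350. Over all 19 rats left out in turn, the difference ran from 0.38 to 0.56. The adjusted p of the exact test ran from 0.0294 to 0.173. In males the share was 1.11% to 2.90% in SHR and 1.09% to 3.61% in WKY, and the log2 odds differed by 0.08 (exact permutation p = 0.769). Between the sexes the log2 odds differed by 0.10 in SHR and -0.30 in WKY, with adjusted exact permutation p-values of 0.769 and 0.488. This share moves with the scale shift given above: on the percent scale the median genus, too, was higher in SHR females, by 0.36.

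A comparison that no library scaling can move is that of Blautia with its own family. The list of other Lachnospiraceae held 32 genera, of which 15 are in the table. Blautia had 0.246 to 0.298 reads for each read of these genera in SHR females, with a median of 0.274, and 0.270 to 0.416 in WKY females, with a median of 0.309. SHR males ran from 0.236 to 0.341 with a median of 0.271, and WKY males from 0.290 to 0.463 with a median of 0.358. All 10 SHR females lay below the WKY female median and all 7 SHR males below the WKY male median, while the ranges of the strains overlapped in both sexes.

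The ratio was lower in SHR than in WKY in both sexes. In females the mean log2 ratio was -1.88 ± 0.0961 (SD, n = 10) in SHR and -1.65 ± 0.205 (SD, n = 9) in WKY. The difference of -0.23 (0.851-fold) had p = 0.00300 and an adjusted p of 0.0105 by the 2-sided exact permutation test. In males the means were -1.87 ± 0.181 (SD, n = 7) in SHR and -1.49 ± 0.227 (SD, n = 7) in WKY. The difference of -0.38 (0.767-fold) had p = 0.00524 and an adjusted p of 0.0105 by the same exact test. The call held in females when any of the 19 rats was left out, and in males when any of the 14 was. It did not hold in females when Lachnoclostridium, the most abundant genus of the denominator, was left out: the difference was then -0.20 with an adjusted p of 0.0551 (exact permutation). In the 15 other denominators tried, chosen after the data were seen, both calls held. The members of the denominator were chosen with earlier results of these data known. Whether the strain difference of the ratio itself differs between the sexes was not tested.

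**Figure D2:**
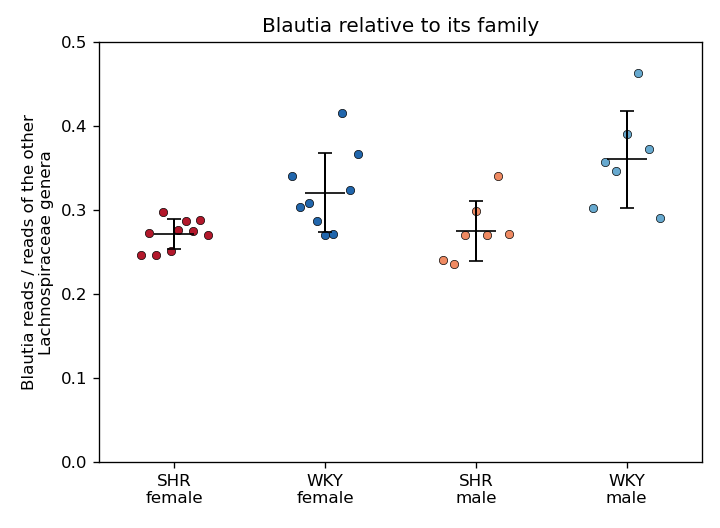
Reads of Blautia for each read of the 15 other listed Lachnospiraceae genera, in each rat (points) by group, with group mean and SD (bars). SHR females lie between 0.246 and 0.298 and SHR males between 0.236 and 0.341, and all of them are below the median of WKY rats of the same sex (0.309 in females, 0.358 in males).

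Between the sexes the ratio did not pass the test. Female minus male was -0.02 in SHR and -0.17 in WKY on the log2 scale, with adjusted p-values of 0.828 and 0.197 by the exact permutation test. Expressed over all reads of the family as the deposited table defines it, Blautia took 21.97% ± 1.07 (SD, n = 10) in SHR females and 22.1% ± 2.15 (SD, n = 7) in SHR males. For female WKY the share was 24.8% ± 2.69 (SD, n = 9), and for male WKY 27.04% ± 3.06 (SD, n = 7).

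The genera of the denominator did not pass the test one by one. On the size-factor scale, 13 of the 15 other Lachnospiraceae genera had a positive SHR minus WKY value in females, with a median of 0.18 against -0.05 over all genera. Of the 15, 12 had a higher value than Blautia, and Pseudobutyrivibrio, Anaerobutyricum and Lachnoanaerobaculum did not. In males 9 of the 15 values were positive, with a median of 0.05, and all 15 were higher than that of Blautia. Lachnoclostridium, a group of spore-forming relatives, had 0.37 ± 0.18 (SE) in females and 0.06 ± 0.21 (SE) in males. Roseburia, a butyrate producer, had 0.41 ± 0.19 (SE) in females and 0.17 ± 0.23 (SE) in males. Their limma adjusted p-values lay between 0.276 and 0.977. limma called 0 of the 15 in any of the 6 comparisons. At an unadjusted p under 0.05 the count was 4 in females, 1 averaged over the sexes, 1 between the sexes of WKY and 0 in the other 3. edgeR called 0 in each comparison, and DESeq2 called 1 in females and 1 averaged over the sexes, where it called 3.67% and 8.18% of all genera. On the percent scale, where the median of all genera is itself shifted, 6 were called in females and 11 averaged over the sexes, against 11.6% and 41.9% of all genera, and 0 in males, against 6.35%.

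The 5 species kept almost the same order in every rat. B. producta was the most abundant and SC05B48 the second in all 33 rats, and LZLJ-3 was the least abundant in all 33. B. argi was next in 27 rats and B. hansenii in the other 6. B. producta took 0.270% to 0.997% of assigned reads over the 33 rats, SC05B48 0.158% to 0.672%, B. argi 0.122% to 0.398%, B. hansenii 0.114% to 0.382% and LZLJ-3 0.0665% to 0.256%. The fewest reads were 144, for LZLJ-3 in SHR female 9, where the Wilson interval reached 16.4% of the value. Reads are named after reference genomes, and related species can share them, so the 5 species are not independent readouts.

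**Figure D3:**
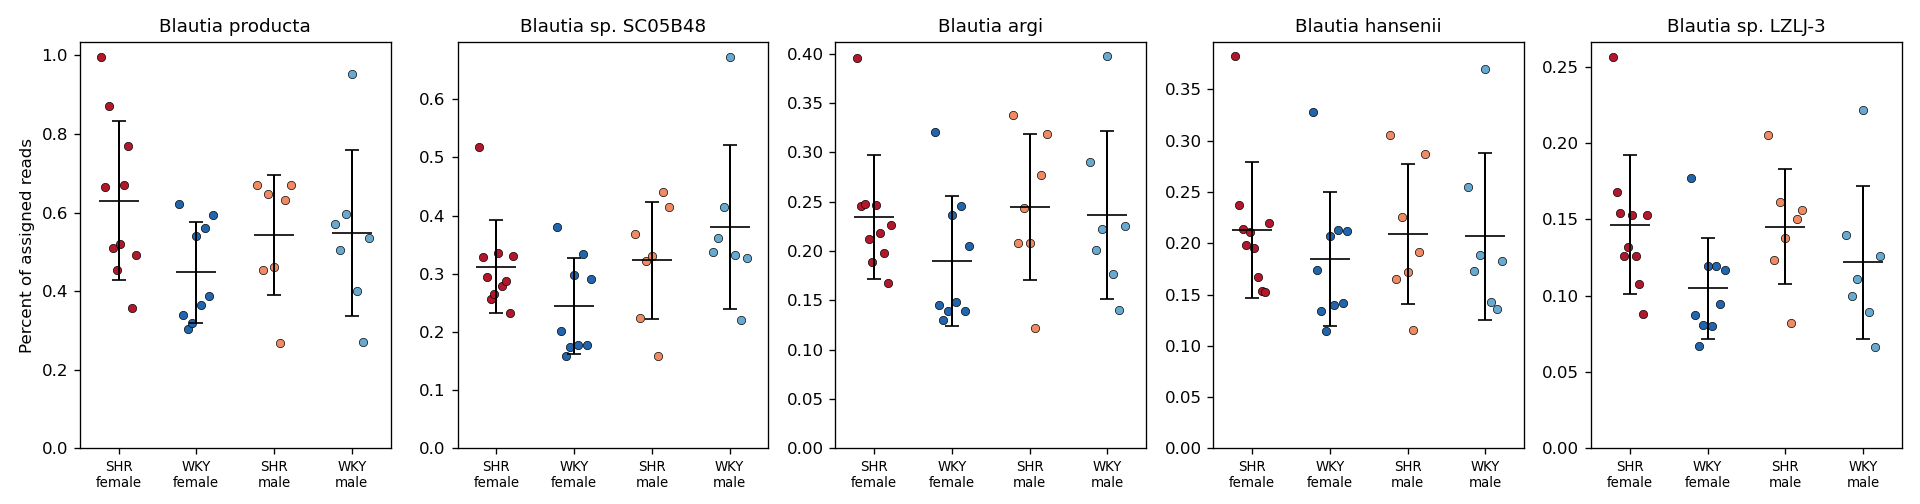
Percent of assigned reads of each Blautia species in each rat (points) by group, with group mean and SD (bars); each panel has its own vertical scale from 0. SHR female 1 and WKY male 4 are the highest rats of their groups in every panel, and the groups overlap in all 5 species.

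B. producta had a median of 0.593% in female SHR, 0.633% in male SHR, 0.387% in female WKY and 0.536% in male WKY. Its means were 0.631% ± 0.202 (SD, n = 10), 0.543% ± 0.153 (SD, n = 7), 0.448% ± 0.129 (SD, n = 9) and 0.547% ± 0.211 (SD, n = 7), in that order. The groups overlapped. By size factors, SHR minus WKY was 0.10 ± 0.22 (SE) in females and -0.39 ± 0.25 (SE) in males, with limma adjusted p-values of 0.848 and 0.523.

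By size factors, SC05B48 had the largest difference of the 5 species between the strains in males and between the sexes of WKY, and the smallest between the strains in females and between the sexes of SHR. Its percent of assigned reads ran from 0.232% to 0.518% in female SHR (median 0.291%), 0.158% to 0.441% in male SHR (median 0.331%), 0.159% to 0.381% in female WKY (median 0.202%) and 0.220% to 0.672% in male WKY (median 0.337%). Its mean normalized value was 2295 ± 725 (SD, n = 7) in WKY males, against 1471 ± 425 (SD, n = 7) in SHR males, 1466 ± 505 (SD, n = 9) in WKY females and 1431 ± 282 (SD, n = 10) in SHR females. WKY males thus had the highest mean, though their lowest rat (1546) lay within the range of each other group. SHR minus WKY in males was -0.64 ± 0.24 (SE), with p = 0.0109 and an adjusted p of 0.206 by limma over all species. Female minus male in WKY was -0.66 ± 0.23 (SE), with p = 0.00580 and an adjusted p of 0.158. By DESeq2 the adjusted p-values were 0.0829 and 0.0531, and by edgeR 0.218 and 0.177. Strain by sex was 0.66 ± 0.32 (SE), with p = 0.0457 and a limma adjusted p of 0.741. On the percent scale the male strain difference was -0.17, and that between the sexes of WKY was -0.62.

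B. argi had medians of 0.222% in female SHR, 0.243% in male SHR, 0.148% in female WKY and 0.223% in male WKY. Its SHR minus WKY difference by size factors was -0.04 ± 0.20 (SE) in females and -0.35 ± 0.24 (SE) in males. B. hansenii had medians of 0.205%, 0.191%, 0.174% and 0.182% in the same order of groups. Its differences were -0.15 ± 0.21 (SE) in females and -0.38 ± 0.25 (SE) in males. LZLJ-3 had medians of 0.142%, 0.151%, 0.0946% and 0.111%, and differences of 0.10 ± 0.20 (SE) in females and -0.11 ± 0.23 (SE) in males. Their limma adjusted p-values lay between 0.525 and 0.941.

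limma called 0 of the 5 species in each of the 6 comparisons, as did edgeR and DESeq2 on the recovered reads. At an unadjusted p under 0.05 the limma count was 1 in males, 1 between the sexes of WKY and 1 for strain by sex, each time SC05B48, and 0 in the other 3 comparisons. Over all species tested, limma called 2.33% between the strains in females, 0.539% in males, 5.45% averaged over the sexes, 0% between the sexes of SHR, 0.711% between those of WKY and 0.0215% for strain by sex. edgeR called 3.71%, 1.27%, 9.57%, 0%, 1.7% and 0.0215% of all species in the same order, and DESeq2 5.26%, 3.75%, 11.5%, 0%, 3.92% and 0.0215%. With 5 members, a count of 0 is what these shares would usually give. By size factors, all 5 SHR minus WKY values in males were negative, with a median of -0.38 against -0.02 over all species. In females 3 were positive and 2 negative, with a median of 0.01 against -0.07. On the percent scale only SC05B48 was negative in males, at -0.17, and the other species lay between 0.083 and 0.36. The 5 species are not independent readouts, so a shared sign is not a repeated result. The strain comparison in males and the sex comparison in WKY share the WKY males. On the percent scale 1 species was called averaged over the sexes, LZLJ-3 at 0.45 with a limma adjusted p of 0.0497, where 29.1% of all species were called. By size factors its value was 0.00. Of all species, the percent scale called 9.98% in females, 6.05% for the strains in males, 0.0646% between the sexes of WKY and 0% in the other comparisons.

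**Figure D4:**
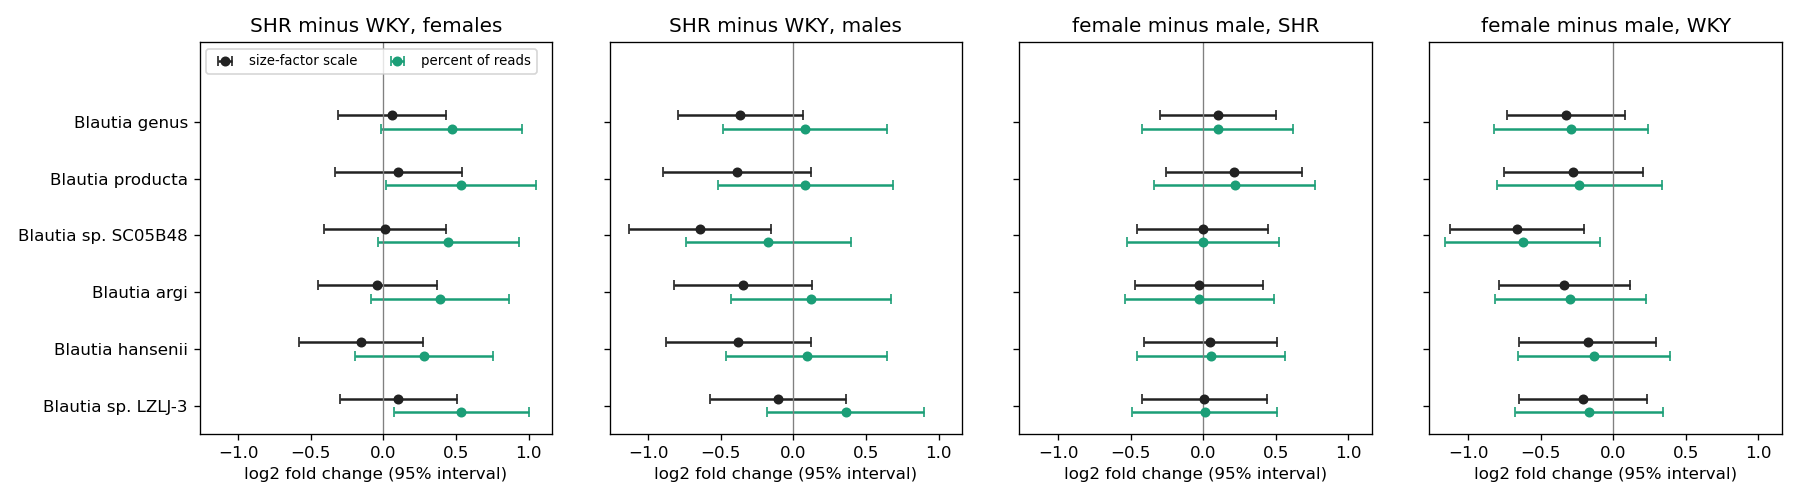
log2 differences (points) with 95% intervals (bars) of the Blautia genus and its 5 species in 4 comparisons, from limma on size-factor normalized values (black) and on percent of reads (green). The scales part in the strain comparisons, where the genus is at 0.06 and 0.47 in females and at -0.37 and 0.08 in males, and lie close together in the comparisons of the sexes.

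Set against the rest of the family, each species had a lower mean in SHR in both sexes. In females the log2 difference of the species over the other Lachnospiraceae was -0.44 for B. hansenii, -0.33 for B. argi, -0.28 for SC05B48, -0.19 for B. producta and -0.19 for LZLJ-3. All 10 SHR females lay below the WKY female median for B. hansenii and B. argi, 8 for SC05B48, and 7 each for B. producta and LZLJ-3. In males the differences were -0.66 for SC05B48, -0.40 for B. producta, -0.40 for B. hansenii, -0.37 for B. argi and -0.12 for LZLJ-3. All 7 SHR males lay below the WKY male median for the first 3 of these, 6 for B. argi and 4 for LZLJ-3. These values share their denominator and were not tested one by one.

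The makeup of the genus was similar between the groups, with its largest departure in WKY males. Of the Blautia reads named to a species, B. producta took 40.7% ± 5.82 (SD, n = 10) in female SHR, 37.1% ± 1.90 (SD, n = 7) in male SHR, 38.5% ± 2.45 (SD, n = 9) in female WKY and 36.4% ± 2.20 (SD, n = 7) in male WKY. SC05B48 took 20.5% ± 2.21, 21.96% ± 2.76, 20.7% ± 1.09 and 25.7% ± 2.62 in the same groups. It ran from 21.2% to 29.1% in WKY males and from 18.9% to 22.6% in WKY females, so that 1 WKY male lay inside the female range. LZLJ-3 had its lowest mean share in WKY males, at 8.10%, against 9.50% in SHR females, 10.0% in SHR males and 8.99% in WKY females. B. argi stayed between 15.3% and 16.7% and B. hansenii between 13.9% and 15.7% on average in the 4 groups. These shares do not depend on how libraries are scaled, and they were described without a test.

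**Figure D5:**
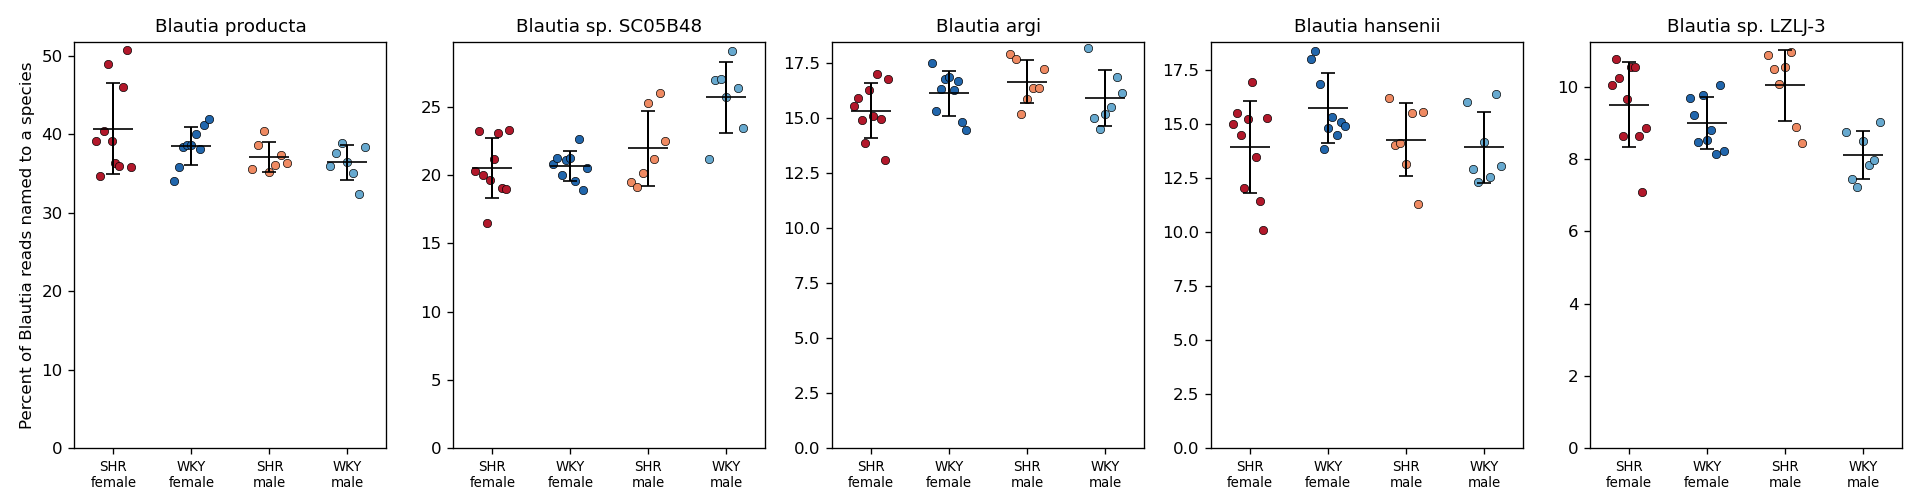
Share of each species in the Blautia reads named to a species, in each rat (points) by group, with group mean and SD (bars); each panel has its own vertical scale from 0. SC05B48 averages 25.7% in WKY males and 20.5% to 21.96% in the other groups.

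The makeup also varied among rats of the same group. SHR female 8 had the highest share of B. producta, 50.8%, and the lowest shares of B. argi (13.1%), B. hansenii (10.1%) and LZLJ-3 (7.09%) of all 33 rats. B. producta had 1.49 to 2.96 reads for each SC05B48 read in SHR females, with a median of 1.96. Its median was 1.83 in female WKY, 1.70 in male SHR and 1.42 in male WKY, where the ratio ran from 1.21 to 1.70. Reads named to Blautia but to no species made up 17.98% to 26.5% of the genus, on average 22.96% in female SHR, 22.5% in male SHR, 21.5% in female WKY and 19.7% in male WKY. Blautia sp. YL58 had 9 reads in all, in 5 rats, and was not tested.

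The species rose and fell together from rat to rat. Over the 33 rats, Pearson's r between the log2 shares of any pair of species lay between 0.80 and 0.93, and with the group means removed between 0.80 and 0.95. B. argi and LZLJ-3 were the closest pair, and B. producta and B. hansenii the least close. The points share libraries and may share reads, so these values only describe the tables. Blautia was also compared with 176 genera with a mean of at least 0.05% of genus reads. Here r was taken on log2(normalized value + 1), group means removed, over 33 rats. The closest genera were Anaerobutyricum (r = 0.91), Massilistercora (0.87), Lachnoclostridium (0.86), Anaerostipes (0.85) and Anaerocolumna (0.83).

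The other listed genera with known acetogens did not pass the main test. Reads were counted for whole genera, so acetogens as a group were not measured. Of 14 listed genera with known acetogens, 8 were in the table. Eubacterium, a genus that includes acetogens and butyrate producers, took a mean of 0.371% of assigned reads in female SHR, 0.380% in male SHR, 0.260% in female WKY and 0.354% in male WKY. Acetobacterium, the type genus for growth on hydrogen and carbon dioxide, took 0.0448%, 0.0454%, 0.0357% and 0.0348% in the same order. By size factors the 8 genera had a median SHR minus WKY difference of -0.06 in females and -0.18 in males, against -0.05 and -0.01 over all genera. limma, edgeR and DESeq2 each called 0 of the 8 in the 6 comparisons. At an unadjusted p under 0.05, limma counted 1 in females and 1 averaged over the sexes, both times Caloramator. It counted 2 between the sexes of WKY, Eubacterium and Moorella, and 0 in the other 3 comparisons. By percent of reads, 1 of the 8 was called in females and 2 averaged over the sexes, where 11.6% and 41.9% of all genera were called.

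Sulfate-reducing bacteria, which use the same hydrogen, were represented by 7 of 8 listed genera. Desulfovibrio, the common sulfate reducer of the gut, took 0.152% ± 0.0204 (SD, n = 10) in female SHR, 0.154% ± 0.0250 (SD, n = 7) in male SHR, 0.119% ± 0.0286 (SD, n = 9) in female WKY and 0.128% ± 0.0483 (SD, n = 7) in male WKY. By size factors its strain difference was 0.00 ± 0.12 (SE) in females and -0.04 ± 0.14 (SE) in males. limma called 0 of the 7 genera in the 6 comparisons, with 2 at an unadjusted p under 0.05 in females and 0 elsewhere. edgeR and DESeq2 called 0. By percent of reads, 3 of the 7 were called in females and 6 averaged over the sexes, where 11.6% and 41.9% of all genera were called.

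Functions tied to acetogenesis and hydrogen are summed over the whole community, so they cannot be assigned to Blautia. On a list of 15 such subsystems, limma called 1 higher and 2 lower in SHR females, 1 lower in SHR males, and 1 higher and 4 lower averaged over the sexes. Over all 1057 functions it called 8.42%, 2.46% and 17.2% in these comparisons. On this list, carbon monoxide dehydrogenase, its maturation factors, formate dehydrogenase and one-carbon metabolism by tetrahydropterines were called by limma in no comparison. The last 2 of these reached an unadjusted p under 0.05 in some comparisons. NiFe hydrogenase maturation, the assembly of nickel-iron hydrogenases, had a mean normalized value of 84.2 ± 23.5 (SD, n = 10) in SHR females and 178 ± 63.8 (SD, n = 9) in WKY females. SHR minus WKY in females was -1.04 ± 0.20 (SE), with a limma adjusted p of 0.00138. In males the values were 75.6 ± 14.4 (SD, n = 7) and 142 ± 58.7 (SD, n = 7), and the difference of -0.82 ± 0.23 (SE) had an adjusted p of 0.0505.

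Single functions moved in either direction. FeFe hydrogenase maturation, the assembly of the iron-only hydrogenases common in fermenting Firmicutes, was 283 ± 61.6 (SD, n = 10) in SHR females and 197 ± 47.5 (SD, n = 9) in WKY females, a log2 difference of 0.53 ± 0.16 (SE) with a limma adjusted p of 0.0357. This call was lost without any 1 of 8 rats (SHR females 1, 2, 3 and 10, WKY females 3, 4, 8 and 9), at adjusted p-values of 0.0533 to 0.0905. Energy-conserving hydrogenase (ferredoxin) was 19.002 ± 15.4 (SD, n = 10) against 69.8 ± 31.01 (SD, n = 9), a difference of -2.07 ± 0.45 (SE) with an adjusted p of 0.00358. Carbon monoxide induced hydrogenase was highest in WKY males, at 501 ± 208 (SD, n = 7), against 215 ± 102 (SD, n = 7) in SHR males and 210 ± 92.5 (SD, n = 9) in WKY females. Its differences were -1.24 ± 0.30 (SE) for SHR minus WKY in males and -1.24 ± 0.28 (SE) for female minus male in WKY, with limma adjusted p-values of 0.0182 and 0.0170. Both use the same WKY males. The first was lost without SHR male 1 (adjusted p of 0.0525), the second without WKY male 2, 3, 4 or 5 (0.0523 to 0.0621), and both with only the groups compared in the fit (0.169 and 0.0860).

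Averaged over the sexes, 2 further functions were called, beside NiFe hydrogenase maturation (-0.93 ± 0.15, SE), carbon monoxide induced hydrogenase (-0.71 ± 0.20, SE) and energy-conserving hydrogenase (-1.07 ± 0.35, SE). The last of these was lost without SHR male 1, WKY male 3 or WKY male 6 (limma adjusted p of 0.0535 to 0.0630). By limma, energy-conserving hydrogenase had an unadjusted p under 0.05 between the strains in females and not in males. For carbon monoxide induced hydrogenase it was so in males and not in females. Acetogenesis from pyruvate, the subsystem by which pyruvate yields acetyl-CoA and acetate, was lower in SHR by -0.20 ± 0.06 (SE), with a limma adjusted p of 0.0210, and was lost with the centred log-ratio (0.219). Butyrate formation from acetyl-CoA was higher by 0.48 ± 0.14 (SE), with an adjusted p of 0.0162. Between the sexes of WKY, carbon monoxide induced hydrogenase was the only member called, where 0.662% of functions were called. Between the sexes of SHR and for strain by sex, limma called 0 members, with 2 and 3 at an unadjusted p under 0.05, and 0% of all functions. The 3 for strain by sex were carbon monoxide induced hydrogenase, energy-conserving hydrogenase and FeFe hydrogenase maturation.

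The authors' deposited tables of their own DESeq2 models, which list taxa past a threshold, held 236 rows for females, 41 for males and 463 for the general model. Of these rows in the authors' deposited tables, 0 were named Blautia and 0 carried the identifier of a Blautia row. Few identifiers there belong to the taxon named beside them: 2 of 187 for females, 2 of 33 for males and 1 of 383 for the general model. Neither count of 0 therefore shows that Blautia was not called. Blautia also has only 7 of the 8584 rows of normalized taxa, so a count of 0 carries little information.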

How the data were processed

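Cecal DNA was sequenced from 33 rats, 1 library each. The tools listed in the submitters' processing notes are Trimmomatic 0.36, cutadapt 2.6, FastQC 0.11.5 and DESeq2, beside a rat genome build; the read classifier and its database were not given in the sources used here. The authors deposited bacterial genera and species in percent of reads, and a normalized signal (reads divided by a size factor) for taxa and functions. They also deposited tables of log2 fold changes with p-values, adjusted p-values, standard errors and mean normalized values. In those last tables few identifiers belong to the taxon named beside them (2 of 187 in the female table), so only their row counts were used. Dividing the low values of the taxa tables by their step gave whole reads for 100% of values (tolerance 0.01 read), and species in both tables gave equal reads. All 1057 functions, 1418 of 1455 genera and 4641 of 5999 species were tested; taxa needed a normalized value of 10 in at least 7 rats.

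The main test was limma 3.58.1 (R 4.3.3) on log2(normalized value + 1), with trend and robust estimation and 4 group means over all 33 rats; such fold changes understate the change of low taxa. A call is a 2-sided Benjamini-Hochberg adjusted p under 0.05 over the whole table. In simulated data for the strain comparison in females, with 4641 species, it recovered 56% of 100 species changed by a log2 of 1 and 100% of 100 changed by 2. The simulated species were drawn independently with a common spread. Changes below a log2 of 1, such as those of Blautia, were not simulated. edgeR 4.0.16 (TMM) and DESeq2 1.42.0 on the recovered reads, percent of reads, a centred log-ratio, other filters and pseudocounts, only the groups compared and each rat left out were alternatives. The share and the ratio were compared by exact permutation over all 92378, 3432, 19448 or 11440 splits of the rats, adjusted over 4 comparisons. These tests ran in scipy 1.17.1 with pandas 2.3.3 and numpy 2.4.6 (Python 3.11.15), and plots were drawn in matplotlib 3.10.9.

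All Blautia species that were tested are named with values; of the lists, members called and the most abundant or best known genera are named. The members and lists were chosen with earlier results of these data known. The search words of the function list were corrected after the matched names were seen, because they had caught dehydrogenases unrelated to hydrogen. No bacterial sequence was used here.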

Additional observations from a re-analysis of the deposited data

Results flagged for a closer look

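SHR female 1 lay far above the other SHR females in 5 measures of percent of assigned reads. The Blautia genus was at 3.39% there, with the next rat at 2.28%. B. argi was at 0.396% (next 0.247%), B. hansenii at 0.382% (next 0.238%), SC05B48 at 0.518% (next 0.335%) and LZLJ-3 at 0.256% (next 0.168%). WKY female 1 lay far above the other WKY females in B. hansenii, at 0.328% (next 0.213%), and in LZLJ-3, at 0.177% (next 0.120%). WKY male 4 did so in SC05B48, at 0.672% (next 0.415%). These were 8 of 56 groups of values examined, where chance marks about 1 in 20, and the measures of a rat are not independent. Blautia sp. YL58, in the normalized table only, had 4 reads in SHR female 3, where a count of 0 allows up to 3.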

How the results depend on the processing

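Of 262 alternatives for the genus, 258 kept direction and side of the threshold, as did 1245 of 1310 for single species, 137 of 142 for the ratio to the family and 74 of 82 for the share. The count of calls stayed within 1.5 times the main count in 261 of 262 alternatives for the Blautia species and 991 of 1036 for the lists, which does not show that the members called were the same: FeFe hydrogenase maturation lost its call in females without any 1 of 8 rats, energy-conserving hydrogenase its call averaged over the sexes without any 1 of 3, and acetogenesis from pyruvate its call with the centred log-ratio. All 20 composition values moved by less than 1 SD. No alternative called the genus. The cause of the changes was not tested, except that the percent scale shifts all genera. No paired analysis was possible because the labels give no replicate numbers shared between groups.

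SHR minus WKY turned sign on the percent scale for the genus (0.079 in males, 0.27 averaged over the sexes), B. argi (0.39 in females, 0.12 in males, 0.26 averaged), B. hansenii (0.28, 0.091 and 0.19), B. producta (0.083 in males, 0.31 averaged), LZLJ-3 (0.36 in males, 0.45 averaged) and SC05B48 (0.14 averaged). With the centred log-ratio, LZLJ-3 averaged turned to 0.027 and SC05B48 between the sexes of SHR to 0.016. Without the 3 shallowest libraries, B. argi in females turned to 0.021, LZLJ-3 averaged to 0.041, SC05B48 between the sexes of SHR to 0.044 and the ratio between those sexes to 0.0051. SC05B48 in females turned to -0.040 with edgeR and -0.0069 with DESeq2. Differences of medians turned the ratio between the sexes of SHR to 0.018 and the share there to -0.13. By size factors the share in males was -0.37.

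The share in females was called by medians (0.67) and without the 3 shallowest libraries (0.57). The ratio in females lost its call without Lachnoclostridium (-0.20). Percent of reads called 1 Blautia species averaged over the sexes, 1 acetogenic genus in females and 2 averaged, 6 and 11 other Lachnospiraceae, and 3 and 6 sulfate reducers; on that scale 11.6% of all genera were called in females and 41.9% averaged, and 29.1% of species averaged. Without the 3 shallowest libraries 1 acetogenic genus was called in females and 1 averaged, and DESeq2 called 1 other Lachnospiraceae genus in each. The function list had 1 call in males and 1 between the sexes of WKY; both became 2 with no filter or a minimum of 50, and 0 with only the groups compared, and the latter also 2 with the centred log-ratio, a pseudocount of 10 or without the 3 shallowest libraries.

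Leaving out each rat in turn ended no call of the ratio and turned the sign of some uncalled values. SHR minus WKY in females ran from -0.015 to 0.14 for the genus, -0.11 to 0.065 for B. argi and -0.053 to 0.11 for SC05B48. In males LZLJ-3 ran from -0.19 to 0.029, and averaged over the sexes from -0.042 to 0.066. Female minus male in SHR ran from -0.0070 to 0.17 for the genus, -0.14 to 0.040 for B. argi, -0.040 to 0.13 for B. hansenii, -0.082 to 0.080 for LZLJ-3, -0.12 to 0.089 for SC05B48, -0.051 to 0.038 for the ratio and -0.053 to 0.18 for the share. The share ran from 0.38 to 0.56 between the strains in females and from -0.065 to 0.23 in males. The function list had 0 to 2 calls in males and 0 to 2 between the sexes of WKY.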
